A study of Aspergillus nidulans with 2 samples.

Results

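The genes described here are 100 genes of Aspergillus nidulans (Emericella nidulans), a filamentous fungus, that carry only a locus tag and whose ratio was at least 2-fold higher with menadione on each of 2 arrays. Members were chosen from the deposited ratios: probes of a gene with a value on both arrays were averaged per array, and a gene was taken when its symbol in the platform annotation was a locus tag starting with ANIA_ and its log2 ratio was 1 or more on both arrays. They are 100 of the 1242 locus-tag genes, and of the 1455 genes in all, that had a value on both arrays. Since these values chose the members, they are a description and not a test of any member.

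The RNA compared came from mycelium of strain FGSC 26 exposed to 0.8 mM menadione, given as its sodium bisulfite compound, for 6 h in fresh minimal-nitrate medium, against mycelium moved to the same medium without menadione. Both had first grown for 18 h at 37 °C with yeast extract. Each of the 2 two-colour cDNA arrays carried both RNAs, with menadione RNA in Cy5 on the first array (flip) and in Cy3 on the second (flop). Whether flip and flop came from independent cultures is not stated in the labels, so an SD over 2 arrays may be technical.

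Menadione is a quinone that flavoenzymes of the cell reduce and that oxygen reoxidises, which releases superoxide. Fungi meet such a load with superoxide dismutases, catalases, peroxidases and the enzymes that keep glutathione and thioredoxin reduced. A locus tag is the serial name that a gene receives at genome annotation, before a study of the gene gives it a name. A set defined by locus tags therefore collects whatever the platform annotation left without a symbol and need not share a function. A tag in that annotation does not show that a gene was never named or studied elsewhere. The tables used here gave no product description for any member, so no role is stated. The RefSeq table of assembly ASM1142v1 matched all 100 members by gene ID and marked 99 as protein-coding and 1, ANIA_08000, as a pseudogene.

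Depth behind a ratio is unknown, since intensities were not used here, and the number of arrays limits the precision. Ratios were present for 3049 probes by flip, 2267 by flop and 2265 by both. The file states neither the direction nor the base of its ratios. Values are read as log2 of menadione over untreated because the labels list the menadione RNA as first channel for either sample, and "higher" below rests on that reading. The 2 columns correlated at r = 0.84 over the 2265 probes. If they ran in opposite directions, none of the 100 genes would be 2-fold in 1 direction on both arrays, which the rule fixes. Neither the correlation nor this count tells menadione over untreated from the reverse.

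The 100 members spanned mean log2 ratios between 1.01 and 4.26, which is 2.01-fold to 19.2-fold, with a median of 1.64 (3.11-fold). The median over all 1455 genes was 0.03. The share of genes at 2-fold or more on both arrays was 8.04% of all genes, 8.05% of those with a locus tag (100 of 1242) and 7.98% of those with a symbol (17 of 213). The 17 genes with a symbol had a median of 1.54. The limma fit over all 1455 genes with Benjamini-Hochberg adjustment called 139 genes higher at 0.05, or 9.55%. Nothing about the members follows from these shares, since the rule used the same contrast. Taken alone, the flop array put 188 locus-tag genes at 1 or more and the flip array 116, so the flip array set the size of the group more than the flop array did. At 4-fold or more on both arrays were 23 of all 1455 genes. They were 21 of the 1242 with a locus tag, all of them members, and 2 of the 213 with a symbol. These counts were not tested against each other.

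**Figure D1:**
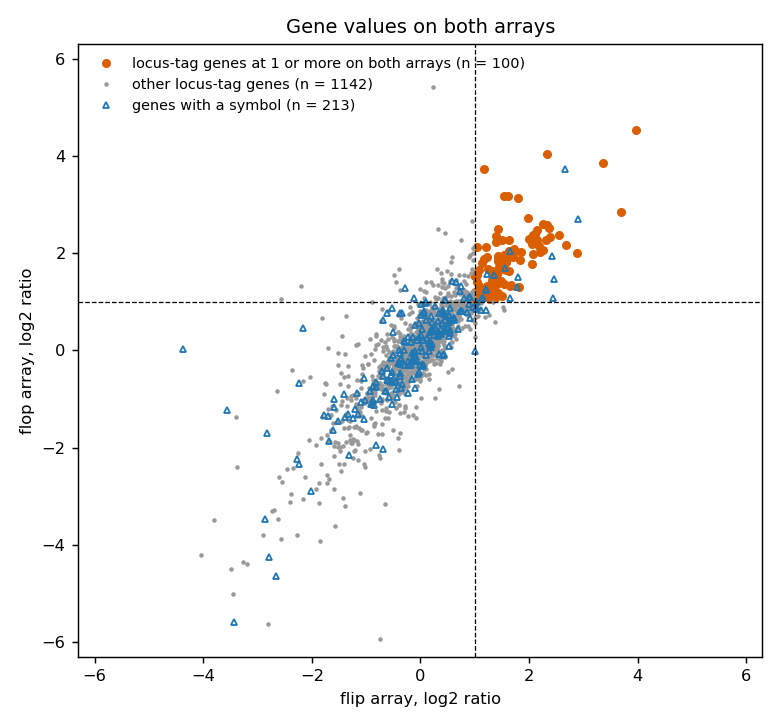
Each point is a gene, with its log2 ratio on the flip array on the x axis and on the flop array on the y axis, and dashed lines at the threshold of 1. The 100 locus-tag genes in orange fill the upper right corner by construction, together with 17 genes that have a symbol.

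The highest member was ANIA_02846, with log2 ratios of 3.98 (flip) and 4.54 (flop), a mean of 4.26 ± 0.40 (SD, n = 2) or 19.2-fold. ANIA_04905 followed at 3.36 and 3.86, a mean of 3.61 ± 0.35 or 12.2-fold. ANIA_02488 was at 3.69 (flip) and 2.85 (flop), a mean of 3.27 ± 0.59 or 9.65-fold. These 3 genes were at least 2.85 on either array. The fourth, ANIA_07816, agreed less well, with 2.34 (flip) and 4.04 (flop), a mean of 3.19 ± 1.20 or 9.13-fold. All 4 rested on 1 probe with values on both arrays, and ANIA_02846 alone of them had a further measured probe, at 2.99 on the flip array.

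Another 23 members had a mean between 2 and 3, and for most of them both arrays gave nearly the same ratio. ANIA_01685 was at 2.55 (flip) and 2.38 (flop), ANIA_10735 at 2.33 and 2.57. ANIA_08815 was at 2.37 and 2.52. ANIA_04900 was at 2.26 and 2.59. The arrays differed by at most 0.33 in these 4 genes. ANIA_05283 was at 2.39 and 2.34, and ANIA_06024 at 2.31 and 2.26. ANIA_07892 was at 2.15 (flip) and 2.48 (flop). ANIA_10234 was at 2.11 and 2.40, and ANIA_10225 at 2.08 and 2.38. Each of these 5 genes was more than 4-fold higher on both arrays. ANIA_02772 was at 2.14 and 2.27. ANIA_04794 was at 2.18 and 2.14, with the smallest SD among the 30 highest, 0.03. ANIA_01769 was at 2.25 (flip) and 2.07 (flop). Ratios of about 4-fold with close arrays were also measured for the next 4 genes. ANIA_05620 was at 2.0 and 2.29. ANIA_01378 was at 2.06 and 2.18, and ANIA_02944 at 2.21 and 2.02. ANIA_00245, the last with a mean over 2, was at 2.07 (flip) and 1.99 (flop).

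In the other members of the 30 highest the arrays lay farther apart or a second probe entered the mean. ANIA_08612 had the widest gap of all 100 members, with 1.17 by flip and 3.73 by flop (mean 2.45 ± 1.81, SD, n = 2). ANIA_03729 was at 1.54 and 3.18, and ANIA_10485 at 1.79 and 3.14. The flop value was the higher in all 3, by 1.35 or more. ANIA_00292 had 1.98 (flip) and 2.73 (flop). ANIA_04687 ran the other way, with 2.89 (flip) and 2.01 (flop), as did ANIA_02650 with 2.69 and 2.16. ANIA_07354 was at 1.43 and 2.49, and ANIA_07752 at 1.63 and 2.26. The values of ANIA_10129 (mean 2.40 ± 1.11) and ANIA_08156 (1.94 ± 0.13), also among the 30 highest, are means of 2 probes each and are taken up with the probes.

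The remaining 70 members lay between 1.00 and 2.05 on the flip array and between 1.02 and 2.36 on the flop array. Their medians were 1.38 (flip) and 1.56 (flop). Of all 100 members, 33 had a mean between 1.5 and 2, and 40 had a mean under 1.5. The set as a whole was therefore nearer to 3-fold than to the values of its leading 4 genes.

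**Figure D2:**
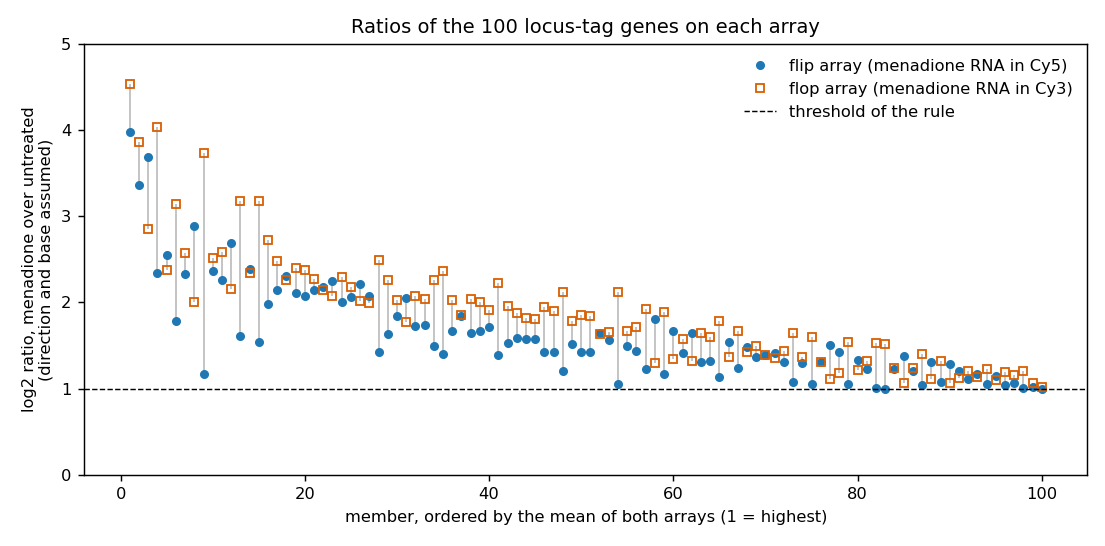
The 100 members are ordered along the x axis by their mean, and the y axis gives each log2 ratio, with filled circles for the flip array, open squares for the flop array and a line joining both values of a gene. Of the 100, 71 were higher on the flop array (the share over all genes is not given here), and ANIA_08612 shows the longest line (1.17 and 3.73).

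Agreement between the arrays was close for most members and poor for a few. The rule asked for 1 or more on both arrays and so left out genes that were high on only 1. The agreement is therefore a description of the chosen values. The SD over both arrays had a median of 0.20 among members, against 0.20 among all genes, and in 74 of the 100 the arrays differed by 0.5 or less. In 7 members they differed by more than 1. Counts at these 2 limits are not given here for all genes. The flop value was the higher in 71 members, the flip value in 27, and 2 members had equal values. The same counts are not given here for all genes, so the 71 is not a trait of the members. The median of flop minus flip was 0.20 among members and 0.08 among all genes. Median ratios of the members were 1.49 (flip) and 1.83 (flop). The flop array also had the wider spread over all probes with both values (SD 1.16, against 0.956 on the flip array) and the higher median (0.10 against -0.02). The part of these array-wide differences in the gaps of single members was not tested.

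The values at the edge of the rule show how closely membership was decided. Just inside it on their lower array were ANIA_05373 (1.00 on the flip array, 1.02 on the flop array), ANIA_03979 (1.00 and 1.52) and ANIA_06487 (1.005 and 1.20). ANIA_10290 (1.01 and 1.53) and ANIA_01198 (1.015 and 1.07) came next. Just outside were ANIA_06638 (0.995 and 1.18), ANIA_04614 (1.34 and 0.99) and ANIA_01278 (0.99 and 1.09). ANIA_00400, at 0.97 and 2.10, and ANIA_02050, at 0.97 and 1.86, had larger means than all 5 genes just inside. The gap between the nearest gene inside and the nearest outside was smaller than the median SD between arrays.

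How far the probes of 1 gene agree could be examined for the minority of members with more than 1 measured probe. The platform assigned 140 probes to the 100 genes, of which 116 had values on both arrays, 13 on the flip array alone and 11 on neither. Values on both arrays came from 1 probe for 86 members, from 2 probes for 13 and from 4 probes for ANIA_06653. For 75 members a single probe was the only measurement, so nothing in these data checks it.

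Among the 14 members with several probes on both arrays, every probe was at 1 or more on both arrays in only 2. ANIA_02219 had probes at 1.6 and 1.85, and at 1.47 and 2.07 (flip, then flop). ANIA_01675 had probes at 1.73 and 2.09, and at 1.27 and 2.44, although a further flip-only probe was at 0.94. The means of the 2 probes differed by 0.045 in ANIA_02219 and by 0.055 in ANIA_01675. In the other 12 genes exactly 1 probe was at 1 or more on both arrays, and the gene passed the rule through it.

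ANIA_08156 had the widest gap between the 2-array means of probes of 1 member, with 1 probe at 3.98 (flip) and 4.24 (flop) and the other at -0.29 and -0.19. The high probe alone would be 17.3-fold, the gene mean is 3.82-fold. ANIA_10129 had a probe at 2.70 by flip and 5.86 by flop, which is the highest single value of any member, and another at 0.53 and 0.50. In ANIA_06653 the probes were at 3.35 and 3.54, at 0.94 and 1.13, at 0.82 and 0.59, and at 0.37 and 0.74. The last gene thus passed through 1 probe of 4, and with the median of its probes it was at 0.88 and 0.94, outside the rule.

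Other genes showed the same form with smaller values. ANIA_05373 had probes at 2.38 and 1.99, and at -0.38 and 0.05. ANIA_06487 had probes at 1.87 and 2.57, and at 0.14 and -0.17. ANIA_09297 had probes at 2.44 and 2.33, and at 0.18 and 0.29. In these 3 genes the lower probe was within 0.4 of no change on both arrays. ANIA_11098 had probes at 2.23 and 2.36, and at 0.60 and 0.35. ANIA_10191 had probes at 2.07 and 2.44, and at 0.39 and 0.19. ANIA_02760 had probes at 1.99 and 2.86, and at 0.34 and 0.91. The lower probes of these 3 were positive on both arrays. ANIA_04980 had probes at 1.55 and 2.07, and at 0.56 and 0.39. ANIA_01198 had probes at 1.47 and 1.86, and at 0.56 and 0.28. ANIA_05907 came closest to agreement among the 12, with probes at 1.84 and 2.22, and at 0.81 and 0.98. Over the 12 genes the 14 lower probes had means between -0.24 and 1.04 with a median of 0.48, and 11 of them were above 0 on both arrays. Among all genes, 43.2% were above 0 on both arrays, a share of gene means and not of single probes. A probe far below 0 lowers the gene mean, so the rule itself favours lower probes above 0. The count is thus a description.

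**Figure D3:**
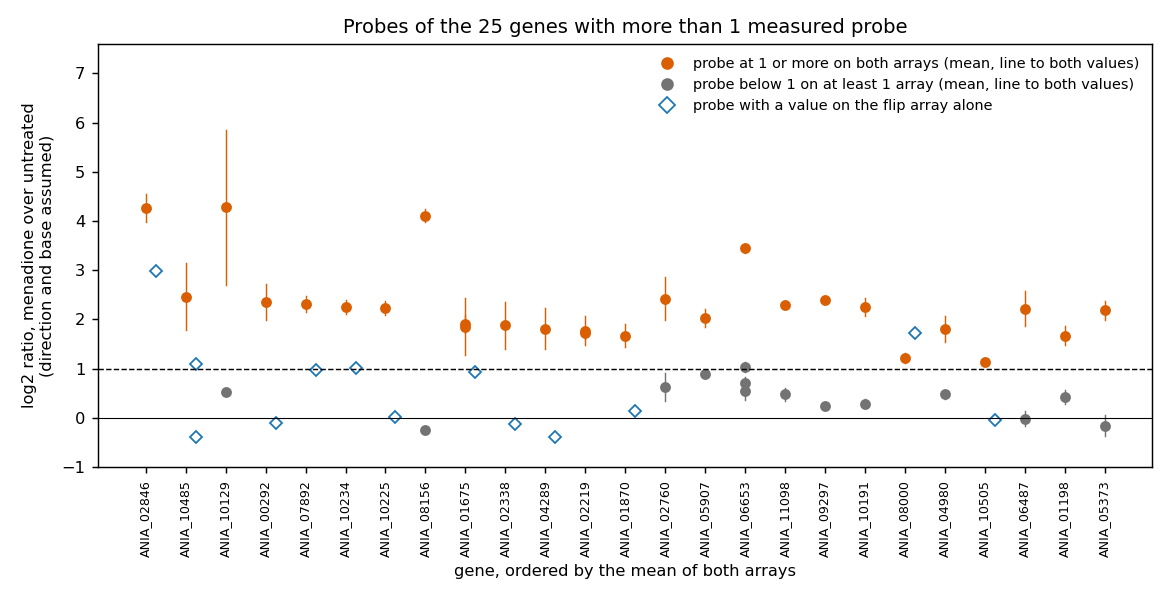
For each of the 25 members with more than 1 measured probe, points give the mean log2 ratio of a probe over both arrays with a line to its 2 values, in orange where both were at 1 or more and in grey otherwise, and open diamonds give probes with a flip value alone. ANIA_08156 has probes at 4.11 and -0.24, whereas those of ANIA_02219 lie together.

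The size of these gaps is a description. A gene whose mean passes through 1 very high probe has a wide gap by that choice, so the rule built wide gaps into the set, and no test of the members' pairs is given as a result. The 14 genes give 19 pairs of probes, 6 of them from ANIA_06653 alone. The median difference within a pair was 1.82 among members, against 0.80 over all 388 pairs of probes from 285 genes. For ANIA_08156 the probes differed by 4.35 ± 0.11 (SD, n = 2), nearly the same on both arrays. For ANIA_10129 the difference of 3.77 ± 2.26 varied more, from 2.17 on the flip array to 5.36 on the flop array. The 3 pairs of ANIA_06653 with its highest probe, which share that probe, differed by 2.41 to 2.89. In the limma fit over all 388 pairs with Benjamini-Hochberg adjustment, 0 pairs (0%) differed at 0.05, with 166 at an unadjusted p under 0.05 and 80 at an adjusted p under 0.05 with robust moderation of the variances.

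A view that does not depend on the gene mean starts from single probes. Of 232 locus-tag genes with several probes on both arrays, 45 had at least 1 probe at 1 or more on both arrays. In 2 of these 45, the same ANIA_01675 and ANIA_02219, another probe was there too, and in 43 no other probe was. The 48 other probes of these 43 genes were by this choice below 1 on at least 1 array, which lowers their median. It was 0.14, with 22 above 0 on both arrays and 16 below 0 on both. Among all genes, 43.2% were above 0 on both arrays, but that is a share of gene means, and the share over single probes is not given here. These counts were not tested. Over all 1787 named probes with both values, 8.79% were at 1 or more on both arrays. Averaging kept 14 of the 45 genes in the set and left out 31.

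Probes valued only on the flip array were not used by the rule, and 12 members had 13 of them. Of these 13 probes, 4 (30.8%) were at 1 or more, against 76 of the 588 named probes of this kind (12.9%). Above 0 were 8 (61.5%), against 325 of 588 (55.3%). Their median was 0.13, against 0.11 over the 588. With 13 probes on 1 array these shares were not tested.

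The 4 probes at 1 or more belonged to ANIA_02846, ANIA_08000, ANIA_10485 and ANIA_10234. ANIA_02846 had 2.99 on its further probe, against 3.98 on the flip array for the probe used. The pseudogene ANIA_08000 had 1.72 on its further probe, and 1.31 and 1.11 on the probe used. For ANIA_10234 the further probe was at 1.02. ANIA_10485 had further probes at 1.09 and -0.39, so its probes disagreed among themselves. ANIA_07892 (0.97) and ANIA_01675 (0.94) had a further probe just under 1. The other further probes lay near 0 or below. They were at 0.13 for ANIA_01870, 0.02 for ANIA_10225 and -0.05 for ANIA_10505. For ANIA_00292 the value was -0.10, for ANIA_02338 it was -0.12 and for ANIA_04289 it was -0.39. ANIA_01870 was at 1.43 and 1.90 on the probe used, ANIA_02338 at 1.40 and 2.36, ANIA_04289 at 1.39 and 2.23, and ANIA_10505 at 1.15 and 1.10. When such probes were averaged in, ANIA_00292, ANIA_01870, ANIA_02338, ANIA_04289, ANIA_10485 and ANIA_10505 left the set, with flip values between 0.50 and 0.94. Counting all kinds of probe, 25 members had a second measured probe, and in 4 of these every probe was at 1 or more wherever it had a value: ANIA_02846, ANIA_02219, ANIA_08000 and ANIA_10234.

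Genes of fungi that serve 1 pathway can lie side by side in clusters, so the neighbours of each member in the annotation order of assembly ASM1142v1 were looked up. No 2 members were directly adjacent, but only 26 members had a directly adjacent gene with values on both arrays. How often other genes with values on both arrays lie close together is not given here. The pairs below are thus a description. The closest pair was ANIA_01675 and ANIA_01677, with 1 gene between them, at means of 1.88 and 1.56. Up to 4 genes lay between the members of 3 further pairs: ANIA_06653 (1.44) and ANIA_06657 (1.46), ANIA_10804 (1.15) and ANIA_06279 (1.85), and ANIA_10290 (1.27) and ANIA_02314 (1.49). None of the genes between these pairs had values on both arrays, so whether they moved with them on both arrays is not known. Values on the flip array alone were not looked up for these genes.

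Directly adjacent genes with values on both arrays were found for 26 members, 27 genes in all. Of these, 22 carried a locus tag and were screened by the same rule, so that none of them was at 1 or more on both arrays only restates that no members were adjacent. The 5 with a symbol were not at 1 or more on both arrays either. Both values were above 0 for 12 (44.4%), against 43.2% of all genes, and below 0 for 11. The median of the neighbours was 0.04, close to the 0.03 of all genes. These shares and medians were not tested.

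The highest of the adjacent genes was ANIA_04614, at 1.34 (flip) and 0.99 (flop), beside ANIA_04615, at 1.48 and 1.42. ANIA_02943 was at 1.10 and 0.86 beside ANIA_02944 (2.21 and 2.02), and ANIA_05621 at 0.84 and 1.00 beside ANIA_05620 (2.0 and 2.29). ANIA_08278 was at 0.93 and 0.90 beside ANIA_08277 (1.64 and 2.04). These 4 neighbours were positive on both arrays and fell short of the rule on at least 1. Others had ratios far below 0. ANIA_04464 was at -2.55 and -2.71, next to ANIA_04463 at 1.43 and 1.84. ANIA_08857 was at -1.92 and -1.95, next to ANIA_08858 at 1.43 and 1.85. ANIA_06795 was at -1.51 and -1.99, next to ANIA_06796 at 1.24 and 1.67, and ANIA_02582 at -1.03 and -2.08, next to ANIA_02581 at 1.41 and 1.58. These 4 were at least 2-fold lower on both arrays, as were 9.14% of all genes. Of neighbours with a symbol, sonA, a nucleoporin gene, was at -1.60 and -0.99 beside ANIA_01378 (2.06 and 2.18). The gene hapE, a subunit of the CCAAT-binding complex, was at -0.03 and 0.27 beside ANIA_06493 (1.04 and 1.40). Of the other neighbours with a symbol, ssuA was at 0.40 and 0.79 beside ANIA_03811 (1.67 and 2.03). The gene lcbA was at -0.62 and -0.37 beside ANIA_03729 (1.54 and 3.18), and ssn3 at 0.01 and 0.07 beside ANIA_02488 (3.69 and 2.85).

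**Figure D4:**
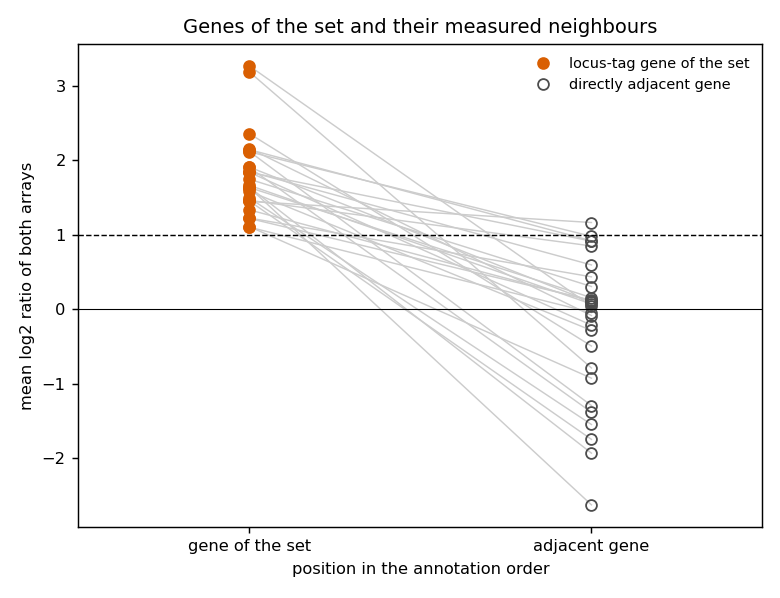
Mean log2 ratios of both arrays (y axis) are given for the members with a measured adjacent gene, at the left in orange, and for the 27 adjacent genes, at the right as open circles, with a line joining each pair. The adjacent genes lie between -2.63 and 1.17. All pairs fall from left to right, which the rule largely fixed, since 22 of the 27 adjacent genes carried a locus tag and fell short of it.

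A further 518 of the 1760 locus-tag genes on the platform could not enter the set, since no probe of theirs had values on both arrays. Of these, 327 had a flip value alone, and 45 (13.8%) of the 327 were at 1 or more on it, with a highest value of 4.18. Neither array gave a value for the other 191. The 100 genes are therefore those that could be measured on both arrays, and not all locus-tag genes at 2-fold or more.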

How the data were processed

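The authors deposited, per the series' design text, ratios scanned with a GenePix 4000B, calculated in GenePix Pro 3.0 and normalized block by block with LOESS in SAS. The deposited values were read as log2 ratios of menadione over untreated; neither base, direction and background correction nor the way duplicate spots were combined is given in the sources used here. Scanner files were not used here. Both arrays form 1 group.

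Genes of probes came from the platform annotation, and symbols were checked through RefSeq gene IDs (assembly ASM1142v1). A gene's probes with values on both arrays were averaged per array, without rescaling. The build behind the clones is not stated, so no coordinates are given. Neighbours follow RefSeq order. Protein likeness and promoter motifs, also planned, were not analysed here.

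limma 3.58.1 in R 4.3.3 (lmFit, eBayes, Benjamini-Hochberg, threshold 0.05) was fitted to 1455 gene means, for background shares, and to 388 probe differences, and tested on simulated data. With 1 residual degree of freedom per row, the fits lean on the prior variance. Errors are SDs over 2 arrays. Members, lists and tests were chosen with earlier results of these data known. Genes named are the 30 with the highest mean, all with several probes or a flip-only probe, the 5 on either side of the threshold, and members near each other in the genome. Other members named beside an adjacent gene, and those adjacent genes, were chosen after their values were seen.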

Additional observations from a re-analysis of the deposited data

How the results depend on the processing

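The number of members, 100, was 99 with the median of a gene's probes (ANIA_06653 left the set), 88 when every probe had to be 2-fold, 131 by the highest probe, 95 with flip-only probes averaged in (94 shared), 97 after centring (96 shared) and 107 after scaling both arrays to the same SD (96 shared). A limit of 1.5-fold gave 207 and one of 3-fold gave 37, natural logarithms gave 171, and turning the flop array's sign gave 0, with means between -1.28 and 0.44 for the 100 genes (71 below 0). A single array gave 116 (flip alone) to 188 (flop alone). The mean of a member moved by at least its SD between arrays in 13 members after centring, 4 after scaling, 1 with the median and 4 with flip-only probes averaged in. Centring lowered every mean by the same amount, so those 13 are the members with the smallest SDs, whose arrays agreed best. The 4 after scaling were all among them. For these 2 settings the counts therefore do not mark the least stable members. The rule favours wide gaps between probes, so counts of members' pairs are descriptions. Of 19 pairs, 6 of them from ANIA_06653, 0 differed at 0.05 by limma, as did 0 of all 388 pairs. At an unadjusted p under 0.05 there were 14, against 42.8% of all pairs, and with robust moderation 10, against 20.6%. The count was 14 at an adjusted p under 0.10, 9 after scaling and 0 of 18 by the unmoderated statistic. The last left out a pair with equal differences on both arrays. Shares over all pairs are not given here for these other settings. The count of 4 flip-only probes became 6 at 1.5-fold, stayed 4 after subtracting the flip array's median and was 3 of 7 for members at least 3-fold. The 139 genes called higher by limma became 124 with robust moderation, an alternative chosen after seeing the data. Each ratio already pairs both RNAs on 1 array, and no further pairing was possible because both arrays belong to 1 group. Signal over background is unknown, so what it limits was not tested. Limits are the assumed direction and base, the fold limit, the 2 arrays and the 75 members with 1 measured probe.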

Other observations

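Probes without a gene name in the platform annotation held a similar share of high ratios. Of 478 such probes with values on both arrays, 43 (9.0%) were at 1 or more on both, against 8.79% of the named probes. Their means had a median of 1.51 and reached 2.91. Which genes they belong to is not given in the tables used here.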
